A study of Mus musculus with 12 samples.

Results

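The receptors, antagonist and feedback genes through which a cell senses interleukin-1 (IL-1), interleukin-6 (IL-6) and tumor necrosis factor (TNF) were followed in mouse liver. They are 10 genes, taken by their symbols from the 54838 genes of the deposited count table: the cytokine gene *Il1b*, the antagonist gene *Il1rn*, the receptor genes *Il1r1*, *Il1rap*, *Il6ra*, *Il6st*, *Tnfrsf1a* and *Tnfrsf1b*, the feedback gene *Socs3* and the transcription factor gene *Stat3*. RNA was read from 12 livers of C57BL/6J mice, females from a breeder per the study's methods and with no age given in the labels, in 4 groups of 3. The mice drank plain water or 25 mM ZnSO4 for 7 days, were injected intraperitoneally with PBS or with 200 µg of the synthetic glucocorticoid dexamethasone (Dex), which activates the glucocorticoid receptor (GR), and gave their livers 2 h later. The groups are named by drinking water and injection (water-PBS, zinc-PBS, and with Dex water-Dex and zinc-Dex). None of the mice had received TNF, IL-1 or IL-6, so the values describe resting liver and liver shortly after Dex. The study asked whether zinc and the GR act together in the protection of mice against TNF.

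IL-1β binds the receptor IL-1R1, which then recruits the shared chain IL-1RAP, and the antagonist IL-1Ra occupies IL-1R1 without recruiting it. IL-6 binds IL-6Rα, which pairs with gp130 (the *Il6st* product), and gp130 activates the transcription factor STAT3. STAT3 in turn switches on *Socs3*, whose protein blocks gp130. TNF is bound by TNFR1 (*Tnfrsf1a*), which can drive inflammation and cell death, and by TNFR2 (*Tnfrsf1b*), which lacks a death domain. In liver, IL-1, IL-6 and glucocorticoids are all known to act on hepatocytes to set the output of acute phase proteins.

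RefSeq promoter windows, from 250 bases before to 50 after a start site, were at hand for 10 of the 10 genes (13 windows, GRCm38.p6). Each window was searched on both strands for the core of the GR palindrome (ACANNNTGT), the STAT element (TTCNNNGAA), the AP-1 element (TGANTCA) and the NF-κB element. The stretches shown hold 4 of the 5 matches found, all in genes whose level changed with Dex, so that promoters of genes that moved up and of one that moved down can be read side by side. The match of *Tnfrsf1a* is not shown because its stretch overlaps an annotated exon of the gene. Capitals mark the match. Bases are numbered from the start site of the window searched, and the stretches of *Il1r1* and *Socs3* lie inside the annotated genes. The other *Il1r1* window, at the annotated start of the gene, held no match.

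*Il1rn*, chr2:24336674-24336770, plus strand, bases -186 to -90 from the start: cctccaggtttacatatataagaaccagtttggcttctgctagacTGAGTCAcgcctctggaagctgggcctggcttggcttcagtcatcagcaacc

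*Il1r1*, chr1:40266336-40266408, plus strand, bases -250 to -178 from the start: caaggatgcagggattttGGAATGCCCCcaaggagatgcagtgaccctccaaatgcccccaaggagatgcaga

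*Tnfrsf1b*, chr4:145246998-145247096, minus strand, bases -226 to -128 from the start: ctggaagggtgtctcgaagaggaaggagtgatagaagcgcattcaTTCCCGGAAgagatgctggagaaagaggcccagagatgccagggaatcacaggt

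*Socs3*, chr11:117969467-117969565, minus strand, bases -199 to -101 from the start: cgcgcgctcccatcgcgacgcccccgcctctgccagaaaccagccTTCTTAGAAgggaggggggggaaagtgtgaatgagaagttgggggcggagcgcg

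The GR palindrome core was in 0 of the 13 windows of the 10 genes and in 6.85% of all 32851 RefSeq windows. The STAT element was in 3 of the 13 windows and in 8.3% of all windows. Its genes were *Tnfrsf1a* (TTCCGTGAA), *Tnfrsf1b* (TTCCCGGAA) and *Socs3* (TTCTTAGAA). These 3 genes did not move together, since *Tnfrsf1b* rose with Dex and *Tnfrsf1a* and *Socs3* fell. The AP-1 element was in 1 of the 13 windows, of *Il1rn* (TGAGTCA), and in 7.81% of all windows. The NF-κB element was in 1 of the 13, of *Il1r1*, and in 4.51% of all windows. A match is a description of letters in these windows and not of binding.

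Libraries held from 9091152 to 12303527 counts, and 26191 genes had at least 1 count. Levels are read counts divided by the library's DESeq2 size factor, given as mean ± SD of 3 mice. A gene passed the test at a DESeq2 adjusted p under 0.05 and was called where its absolute log2 fold change was also above 0.8. The treatments were seen in their known target genes. *Mt1*, a metal-binding protein gene induced by zinc, was higher in zinc-PBS than in water-PBS (log2 3.87 with SE 0.228, DESeq2 adjusted p = 1.2e-60), and the zinc importer gene *Slc39a4* was lower (log2 -1.5, SE 0.154, DESeq2 adjusted p = 7.2e-19). The GR target *Fkbp5* (log2 3.12, SE 0.203, DESeq2 adjusted p = 8.0e-51) and the GR target *Tsc22d3* (log2 2.28, SE 0.142, DESeq2 adjusted p = 1.8e-55) were higher in water-Dex than in water-PBS. Zinc-PBS replicate 1 stood apart for the genes described here: it was the highest of the 6 PBS libraries in 9 of the 10 genes and in 17.1% of 9574 genes. It exceeded the next PBS library more than 2-fold in *Il1b* (3.38 times) and *Socs3* (4.81 times), as it did in 27 (0.282%) of those 9574 genes. Results that rest on this mouse are therefore given with and without it.

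Hepatocyte transcripts dominated these libraries, as the summed normalized counts of 5 markers show. The 8 Kupffer cell markers summed to 4906 to 7031, and 0 of them passed in any of the 6 tests by DESeq2 or by edgeR, with 0 at an unadjusted p under 0.05. The hepatocyte sum was higher in the Dex mice (1495000 to 1641000) than in the PBS mice (1146000 to 1370000), and its part in the Dex results was not tested. In whole liver, fewer cells of a type and less RNA per cell cannot be told apart, which bears on genes such as *Il1b* that are mostly made by macrophages.

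**Figure D1:**
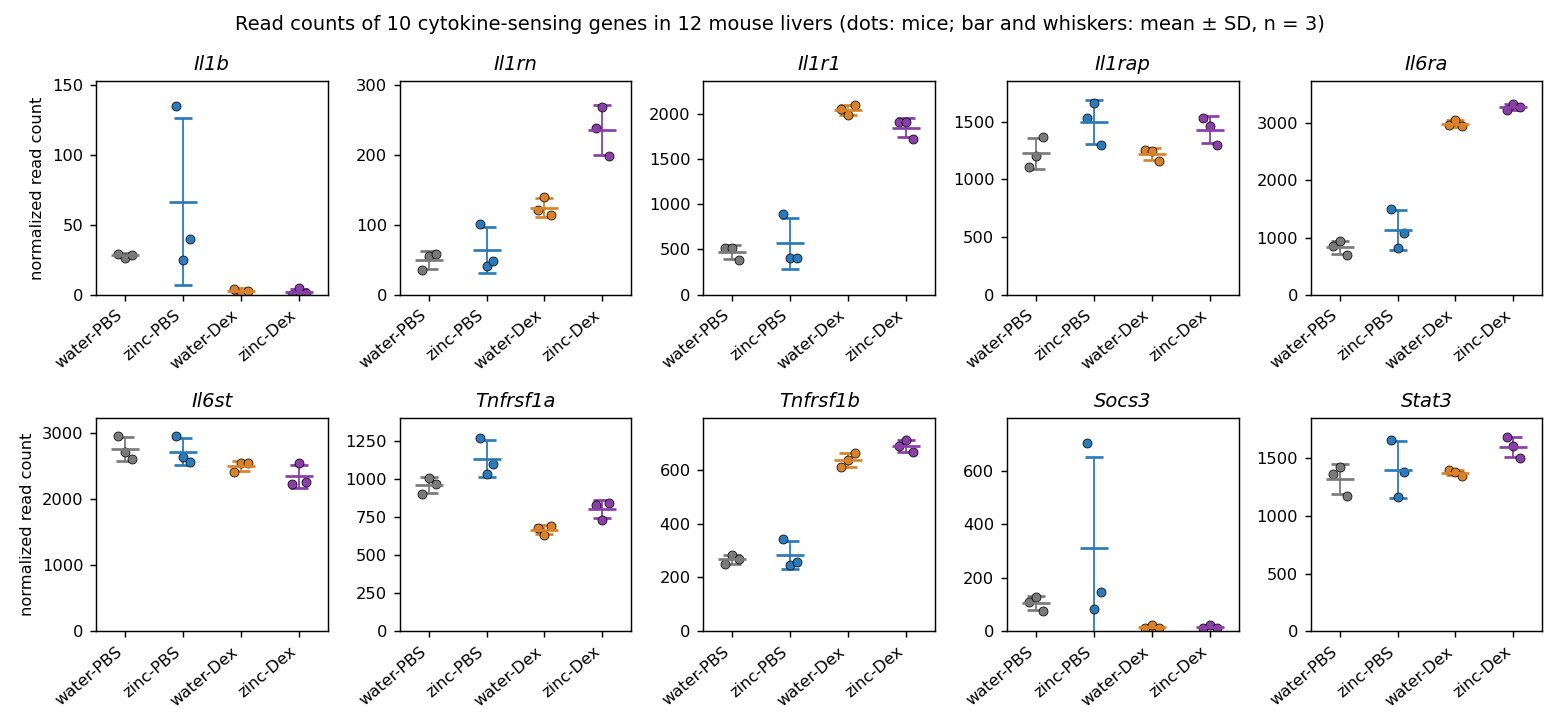
Normalized read counts of the 10 genes in each of the 12 livers, by group, with dots for mice and bars and whiskers for the mean ± SD (n = 3); each panel has its own linear axis from 0, and the lower whisker of *Socs3* in zinc-PBS is cut at 0. *Il1r1*, *Il6ra* and *Tnfrsf1b* are high and *Il1b* and *Socs3* low in all 6 Dex-injected mice, and 1 zinc-PBS mouse is far above the others in *Il1b* and *Socs3*.

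Per kilobase of exon, TNFR1 was the most abundant of these transcripts in resting liver. In water-PBS the order was *Tnfrsf1a* (370 normalized counts per kilobase, libraries from 348 to 389), *Il6st* (248), *Stat3* (138), *Il1rap* (108), *Il6ra* (95.9), *Il1r1* (74.1), *Tnfrsf1b* (69.9), *Socs3* (36.2), *Il1b* (14.7) and *Il1rn* (8.88). The ranges of *Il1rap* and *Il6ra*, of *Il6ra* and *Il1r1* and of *Il1r1* and *Tnfrsf1b* overlapped, so these neighbours did not differ beyond their spread. In water-Dex the order began with *Il6ra* (346, libraries from 341 to 354), *Il1r1* (321), *Tnfrsf1a* (257) and *Il6st* (225) and ended with *Il1rn* (22.5), *Socs3* (5.35) and *Il1b* (1.23), and no neighbours overlapped. Counted per kilobase of the longest transcript, *Il1r1* stood before *Il6ra* in water-Dex and *Il1rap* before *Stat3* in all 4 groups. By that length *Il1rap* also stood before *Il6st* in zinc-PBS and zinc-Dex, and *Il1rap* and *Stat3* stood before *Tnfrsf1b* in water-Dex and zinc-Dex. In zinc-PBS the levels from *Stat3* (147) down to *Il1rn* (11.5) overlapped between every pair of neighbours. The zinc-Dex order began with *Il6ra* (379.6), *Tnfrsf1a* (309) and *Il1r1* (290.1), the last 2 overlapping, and ended as in water-Dex.

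The first comparison asked what Dex changed in mice on plain water. Dex raised the genes of the ligand-binding receptors for IL-1 and IL-6, of TNFR2 and of the IL-1 antagonist, and lowered *Il1b*, *Socs3* and, by less, the TNFR1 gene. Of the 10 genes, 6 were called, 4 higher and 2 lower, against 9.68% of all 14221 genes tested (4.89% higher and 4.79% lower). At adjusted p alone 7 passed, against 21.6% of all, and the ranges of the 2 groups did not overlap in 8, against 39.0%. In mice on zinc, Dex gave the same counts: 6 called, 4 higher and 2 lower, against 9.68% of all (5.0% and 4.68%), 7 passing against 20.1%, and 8 with ranges apart against 38.1%. The 6 genes called were *Il1rn*, *Il1r1*, *Il6ra*, *Tnfrsf1b*, *Il1b* and *Socs3* in both. The signal partners *Il1rap*, *Il6st* and *Stat3* passed in neither. The test of whether the Dex effect differed with zinc found 0 of the 10 by DESeq2, which called 0.0191% of all genes and passed 0.0229% at adjusted p alone. It found 0 of the 10 at an unadjusted p under 0.05 and 0 by edgeR.

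**Figure D2:**
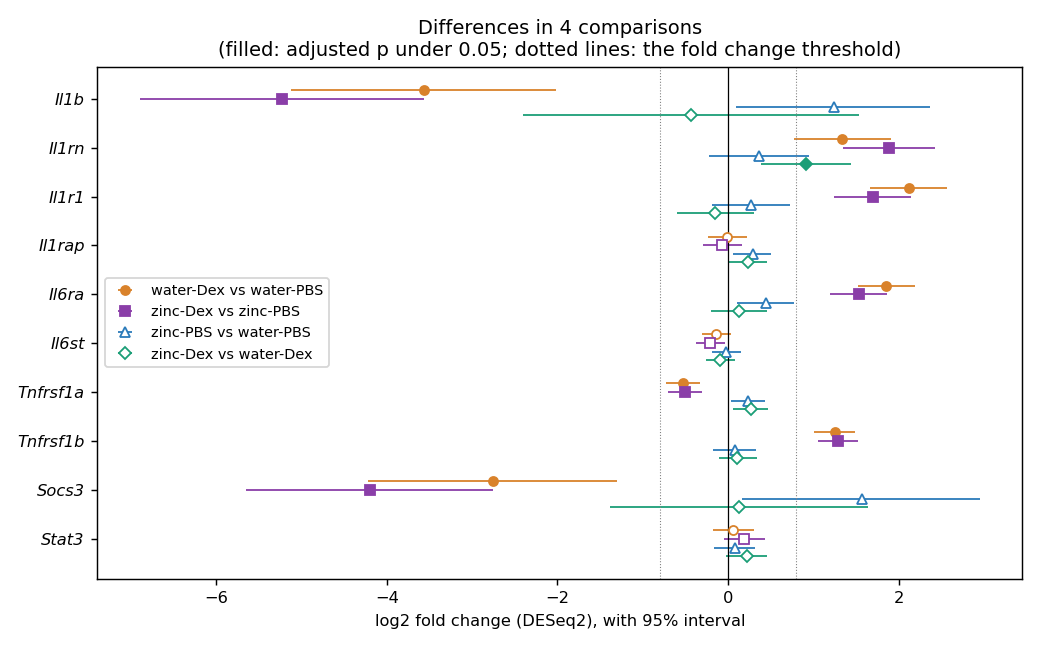
Log2 fold changes of the 10 genes in 4 comparisons with 95% intervals from DESeq2; filled symbols passed an adjusted p of 0.05 and dotted lines mark 0.8 in either direction. Both Dex comparisons lie on the same side for the 6 called genes, and of the comparisons of zinc with water only *Il1rn* in Dex-injected mice is filled.

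*Il1b* (ENSMUSG00000027398, chromosome 2, 129364570 to 129371139, minus strand, GRCm38) was the only cytokine gene of the 10. Its normalized counts were 29.4, 26.4 and 28.6 in water-PBS and 134, 24.5 and 39.8 in zinc-PBS. After Dex they were 4.06, 0.0 and 2.97 in water mice and 0.0, 4.44 and 0.961 in zinc mice. Every PBS mouse lay above every Dex mouse, and 2 Dex mice had no read. *Il1b* fell in water mice (log2 -3.57, SE 0.791, DESeq2 adjusted p = 7.9e-05) and in zinc mice (log2 -5.23, SE 0.851, DESeq2 adjusted p = 1.8e-08). The raw counts behind this were 83 against 7 and 221 against 5, so that PBS exceeded Dex 11.8 times in water (exact 95% counting interval 5.46 to 30.1) and 37.7 times in zinc (15.9 to 117), intervals that cover counting error only. Without zinc-PBS replicate 1 the log2 difference in zinc mice was -4.19, and without zinc-Dex replicate 2 it was -7.02. In water mice it was -4.21 without water-Dex replicate 1. An antisense gene, *Il1bos*, shares 25 bases of exon with *Il1b* and had at most 1 count.

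*Il1rn* (ENSMUSG00000026981, chromosome 2, 24336853 to 24351494, plus strand) encodes the antagonist IL-1Ra, and the promoter stretch shown with the AP-1 letters lies before one of its start sites. It had 34.6, 54.6 and 58.2 normalized counts in water-PBS and 101, 41.1 and 48.0 in zinc-PBS. Dex brought it to 121, 139 and 114 in water mice and to 239, 269 and 198 in zinc mice. All 6 Dex mice lay above all 6 PBS mice, and all 3 zinc-Dex mice lay above all 3 water-Dex mice. The rise with Dex was 1.34 on the log2 scale in water mice (SE 0.290, DESeq2 adjusted p = 4.7e-05) and 1.89 in zinc mice (SE 0.277, DESeq2 adjusted p = 2.4e-10). Without zinc-PBS replicate 1 the rise in zinc mice was 2.40. *Il1rn* was the least abundant gene per kilobase in both PBS groups. The counts are per gene, so secreted and intracellular forms of IL-1Ra, which start at different promoters, were not separated.

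*Il1r1* (ENSMUSG00000026072, chromosome 1, 40225080 to 40317257, plus strand) encodes the IL-1 receptor that binds the ligand and the antagonist. Its counts were 519.8, 512 and 382 in water-PBS and 896, 406 and 406 in zinc-PBS. In water-Dex they were 2053, 1986 and 2092 and in zinc-Dex 1912, 1905 and 1721, more than every PBS mouse. *Il1r1* showed the largest rise of the 10 genes in water mice (log2 2.12, SE 0.233, DESeq2 adjusted p = 6.3e-18) and rose by 1.70 in zinc mice (SE 0.232, DESeq2 adjusted p = 9.3e-12), or by 2.19 without zinc-PBS replicate 1.

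*Il1rap* (ENSMUSG00000022514, chromosome 16, 26581704 to 26730117, plus strand), which encodes the shared signal chain, had means of 1226 ± 132, 1498 ± 188, 1219 ± 50.8 and 1432 ± 120 in the order water-PBS, zinc-PBS, and the water and zinc mice with Dex (n = 3 each). The Dex differences were -0.01 (95% interval -0.23 to 0.22) in water mice and -0.07 (-0.29 to 0.16) in zinc mice on the log2 scale, and neither passed. The 2 chains of the IL-1 receptor stood in a different ratio after Dex. *Il1r1* per *Il1rap*, both per kilobase, was 0.838, 0.760 and 0.499 in water-PBS against 2.92, 2.85 and 3.22 in water-Dex. On zinc it was 1.04, 0.435 and 0.559 with PBS against 2.23, 2.32 and 2.37 with Dex. The ratio was above that of every PBS mouse in all 6 Dex mice. With the longest transcript as length the means were 0.304, 0.295, 1.3 and 1.0 in the same order of groups. An antisense gene, *Gm20319*, shares 552 bases of exon with *Il1rap* and had 144 to 333 counts, so the level of *Il1rap* is uncertain.

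*Il6ra* (ENSMUSG00000027947, chromosome 3, 89864059 to 89913196, minus strand) encodes the chain that binds IL-6. It had 852, 932 and 703 counts in water-PBS and 1501, 809.5 and 1078 in zinc-PBS. Dex mice had 2967, 3061 and 2948 on water and 3234, 3330 and 3277 on zinc, with no overlap with PBS mice. *Il6ra* rose by 1.85 on the log2 scale in water mice (SE 0.171, DESeq2 adjusted p = 2.4e-25) and by 1.54 in zinc mice (SE 0.170, DESeq2 adjusted p = 9.1e-18), or by 1.8 without zinc-PBS replicate 1. The antisense gene *Gm42809*, which shares 242 bases of exon with it, had at most 12 counts.

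*Il6st* (ENSMUSG00000021756, chromosome 13, 112464070 to 112510086, plus strand), the gene of the signal chain gp130, had 2952, 2711 and 2606 counts in water-PBS and 2414, 2540 and 2545 in water-Dex. It had 2953, 2633 and 2565 in zinc-PBS and 2235, 2546 and 2254 in zinc-Dex. The Dex mice lay below the PBS mice within either drinking water, by small amounts that did not pass the test: -0.14 (95% interval -0.31 to 0.03, DESeq2 adjusted p = 0.270) in water mice and -0.21 (-0.38 to -0.04, DESeq2 adjusted p = 0.0650) in zinc mice. *Il6ra* per *Il6st* was 0.371, 0.441 and 0.346 in water-PBS and 0.653, 0.395 and 0.540 in zinc-PBS. After Dex it was 1.58, 1.55 and 1.49 in water mice and 1.86, 1.68 and 1.87 in zinc mice, above all PBS mice and above 1 in each. The transcript of the binding chain went from the scarcer to the more abundant of the pair, per kilobase of merged exons and also of the longest transcript (means 0.302 and 1.20 on water, 0.414 and 1.41 on zinc).

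*Tnfrsf1a* and *Tnfrsf1b*, the 2 TNF receptor genes, moved in opposite directions with Dex. *Tnfrsf1a* (ENSMUSG00000030341, chromosome 6, 125349362 to 125362484, plus strand) had 902, 1007 and 969.7 counts in water-PBS and 677, 632 and 689 in water-Dex. In zinc mice it had 1266, 1032 and 1096 with PBS and 829.8, 733 and 840.1 with Dex. It fell by 0.53 on the log2 scale on water (SE 0.103, DESeq2 adjusted p = 4.3e-06) and by 0.50 on zinc (SE 0.101, DESeq2 adjusted p = 1.3e-05), which passed the test but stayed under the fold change threshold.

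*Tnfrsf1b* (ENSMUSG00000028599, chromosome 4, 145213463 to 145246870, minus strand) had 251.0, 283 and 267 counts in water-PBS and 342, 246 and 258 in zinc-PBS. Dex brought it to 610.2, 635 and 662 on water and to 689, 709.8 and 667 on zinc, with all Dex mice above all PBS mice. It rose by 1.25 on the log2 scale on water (SE 0.123, DESeq2 adjusted p = 2.8e-22) and by 1.29 on zinc (SE 0.121, DESeq2 adjusted p = 2.4e-24), or by 1.45 on zinc without zinc-PBS replicate 1. *Tnfrsf1b* per *Tnfrsf1a* was 0.189, 0.191 and 0.187 in water-PBS and 0.611, 0.682 and 0.652 in water-Dex. The same ratio was 0.183, 0.162 and 0.160 in zinc-PBS and 0.563, 0.657 and 0.539 in zinc-Dex. The ratio lay between 0.160 and 0.191 in the 6 PBS mice and was higher in each Dex mouse, while *Tnfrsf1a* remained the more abundant transcript per kilobase in all 12.

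**Figure D3:**
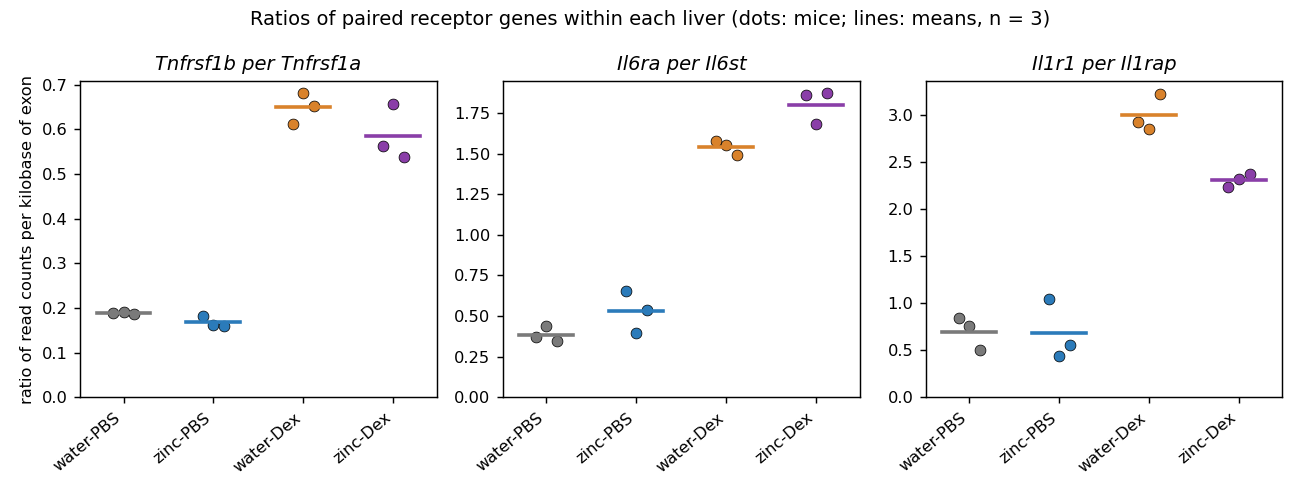
Ratios of read counts per kilobase of merged exons within each liver, for *Tnfrsf1b* per *Tnfrsf1a*, *Il6ra* per *Il6st* and *Il1r1* per *Il1rap*, with dots for mice and lines for group means (n = 3). The 6 Dex mice lie above the 6 PBS mice in each panel; the means for *Tnfrsf1b* per *Tnfrsf1a* are 0.189 and 0.168 with PBS and 0.649 and 0.586 with Dex.

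*Socs3* (ENSMUSG00000053113, chromosome 11, 117966079 to 117970047, minus strand), the feedback inhibitor of gp130 whose promoter stretch with the STAT letters is shown, had 110.3, 128 and 75.8 counts in water-PBS and 701, 83.9 and 146 in zinc-PBS. After Dex it had 12.2, 22.3 and 11.9 on water and 14.1, 22.2 and 14.4 on zinc. All 6 Dex mice lay below all 6 PBS mice, and the 3 zinc-PBS mice differed more among themselves than any other group. *Socs3* fell on water (log2 -2.76, SE 0.744, DESeq2 adjusted p = 0.00178) and on zinc (log2 -4.20, SE 0.739, DESeq2 adjusted p = 2.6e-07). Without zinc-PBS replicate 1 the difference on zinc was -2.77 (SE 0.378, DESeq2 adjusted p = 8.2e-12), and the interaction of zinc and Dex went from -1.44 (SE 1.05) to 0.00 (SE 0.518).

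*Stat3* (ENSMUSG00000004040, chromosome 11, 100885098 to 100939540, minus strand), the gene of the transcription factor downstream of gp130, had 1318 ± 133, 1397 ± 246, 1373 ± 24.4 and 1595 ± 88.7 counts in the same order of groups (n = 3 each). The Dex differences were 0.06 on water (95% interval -0.18 to 0.30) and 0.19 on zinc (-0.05 to 0.43). Without zinc-PBS replicate 1 the difference on zinc was 0.33 and passed the test (SE 0.115, DESeq2 adjusted p = 0.0253). *Stat5a* overlaps *Stat3* by 72 bases of exon on the opposite strand and had 64 to 234 counts, so both levels carry some uncertainty.

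Zinc against plain water was compared within each injection. In PBS-injected mice 0 of the 10 genes were called and 0 passed by DESeq2, which called 0.138% of all 12307 genes and passed 0.341%. EdgeR also called 0 of the 10. At an unadjusted DESeq2 p under 0.05 there were 5, a count that was not made over all genes, here or in the comparisons below. The ranges of the 2 groups did not overlap in 1 gene, *Tnfrsf1a*, against 11.9% of all. The widest differences, 1.57 in *Socs3* (95% interval 0.17 to 2.96, DESeq2 adjusted p = 0.749) and 1.24 in *Il1b* (0.10 to 2.37, DESeq2 adjusted p = 0.772), became 0.13 and 0.19 without zinc-PBS replicate 1. *Il1rn*, *Il1r1*, *Tnfrsf1b* and *Stat3* went from 0.36, 0.27, 0.08 and 0.08 to -0.15, -0.22, -0.08 and -0.05 without it. *Il6ra* (0.45, 95% interval 0.11 to 0.78, DESeq2 adjusted p = 0.478) passed only without zinc-PBS replicate 2 (0.64, DESeq2 adjusted p = 0.00651). When zinc-PBS replicate 1 was left out, its difference was 0.19 and did not pass.

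**Figure D4:**
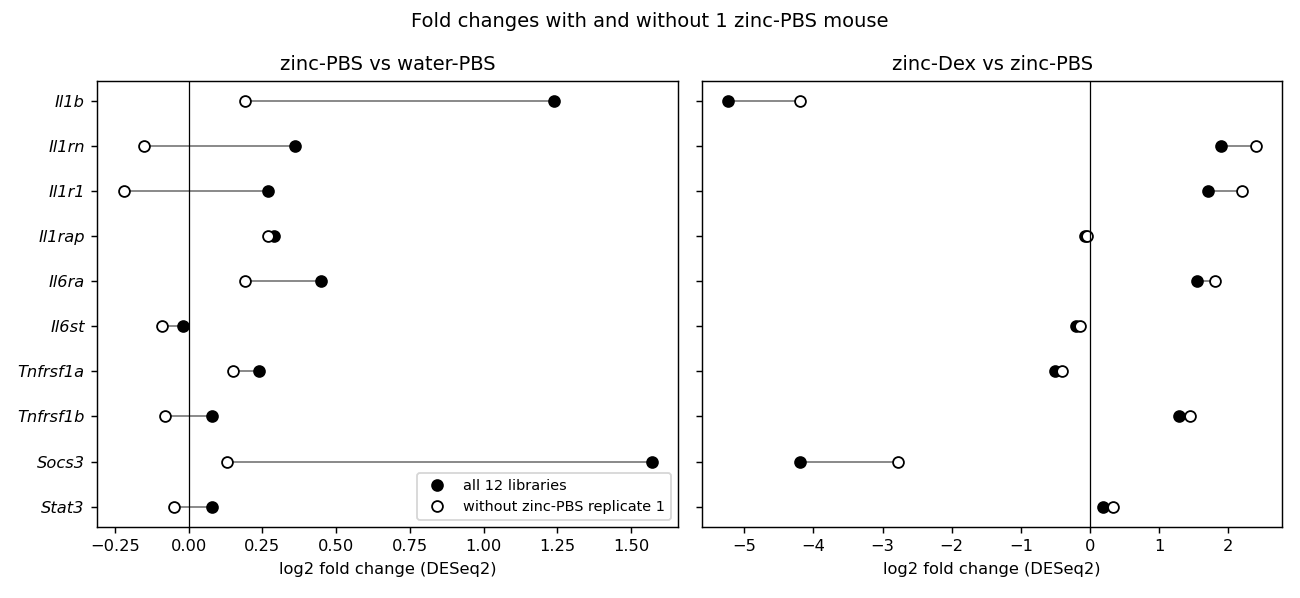
Log2 fold changes from DESeq2 with all 12 libraries (filled) and without zinc-PBS replicate 1 (open), for zinc-PBS against water-PBS (left) and zinc-Dex against zinc-PBS (right); the 2 axes differ in scale. For *Socs3* the first goes from 1.57 to 0.13 and the second from -4.20 to -2.77.

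In Dex-injected mice zinc went with a higher level of the antagonist gene. *Il1rn* was 235 ± 35.6 in zinc-Dex and 125 ± 13.2 in water-Dex (n = 3 each), a log2 difference of 0.92 (SE 0.269, 95% interval 0.39 to 1.44) with a DESeq2 adjusted p of 0.0499, at the edge of the threshold. It was the 1 gene called of the 10, where 0.469% of all 12786 genes were called and 1.35% passed. The call was lost under 4 of the 7 other ways of testing and on leaving out any 1 of 5 mice (adjusted p from 0.0520 to 0.280 by DESeq2), and without water-Dex replicate 2 DESeq2 gave it no adjusted p. Ranges did not overlap in 7 of the 10 genes, against 20% of all: *Il1rn*, *Il1rap*, *Il6ra*, *Tnfrsf1a*, *Tnfrsf1b* and *Stat3* were higher in each zinc-Dex mouse and *Il1r1* was lower. Apart from *Il1rn* these differences were small, from -0.15 in *Il1r1* (95% interval -0.60 to 0.31) to 0.27 in *Tnfrsf1a* (0.06 to 0.47, DESeq2 adjusted p = 0.235), and 3 of the 10 had an unadjusted p under 0.05. *Il1b* and *Socs3* were at their low Dex levels in both groups, with 5 and 7 raw counts of *Il1b* in zinc-Dex and water-Dex, too few to compare. The interaction of zinc and Dex for *Il1rn* was 0.55 (SE 0.401, 95% interval -0.23 to 1.34) and did not pass, and it was 1.06 (SE 0.324, DESeq2 adjusted p = 0.330) without zinc-PBS replicate 1.

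Both treatments together were set against untreated mice, which shares the water-PBS mice with 2 of the comparisons above. The same 6 genes were called, against 7.24% of all 21401 genes, and 7 passed, against 14.8%. *Il1rn* reached its highest level here, with a log2 difference of 2.26 from water-PBS (SE 0.285, DESeq2 adjusted p = 1.3e-13), beside 1.34 for Dex alone and 0.36 for zinc alone, of which the last did not pass. *Il1r1* (1.97), *Il6ra* (1.98), *Tnfrsf1b* (1.37), *Socs3* (-2.63) and *Il1b* (-4.00) had the directions they had with Dex alone, and *Il1b* was at -5.79 without zinc-Dex replicate 2. *Tnfrsf1a*, with means of 801 ± 59.0 in zinc-Dex and 959.7 ± 53.4 in water-PBS, was nearer to the untreated level than in water-Dex and did not pass (-0.26, 95% interval -0.46 to -0.06, DESeq2 adjusted p = 0.0662), and *Il6st* passed by little (-0.23, SE 0.0867, DESeq2 adjusted p = 0.0482). The other ways of testing moved these last 2 across the threshold in both directions.

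The other genes of the 3 pathways were counted in lists. Of 13 further cytokine genes, most were barely expressed: *Il6* had between 0.0 and 4.51 normalized counts in the 12 livers and *Tnf* between 0.0 and 23.5, the highest in each case in zinc-PBS replicate 1. *Tnf* was listed at 0 in all 6 Dex mice. DESeq2 gave an adjusted p to 6 of the 13 in the Dex comparison on water, where 0 passed (median log2 -0.66, against -0.01 over all genes tested), 4 had an unadjusted p under 0.05 and 1 passed by edgeR. It gave one to 7 on zinc, where 3 were called lower, against 4.68% of all genes (median -0.90, against -0.01), and 1 passed by edgeR. These 3 were *Il1a*, *Tnf* and *Ltb*, named here after their values were seen, of which without zinc-PBS replicate 1 *Ltb* did not pass (DESeq2 adjusted p = 0.0735) and *Tnf* had no adjusted p. *Il1a*, the other agonist of IL-1R1, was 44.5 ± 1.30, 67.0 ± 31.2, 25.0 ± 7.20 and 25.7 ± 3.99 in the same order of groups as before (mean ± SD, n = 3). On zinc its log2 difference was -1.39 (SE 0.345, DESeq2 adjusted p = 0.000615), and -0.95 without zinc-PBS replicate 1.

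Among 17 other receptors and decoys, 1 rose and 1 fell with Dex on water (14 tested, median 0.06) and 3 rose and 1 fell on zinc (16 tested, median 0.06), where 21.6% and 20.1% of all genes passed. *Tnfrsf21*, a death receptor gene, rose by 0.84 on zinc (SE 0.162, DESeq2 adjusted p = 3.7e-06). The decoy receptor gene *Il1r2*, named after its values were seen, had at most 4.25 normalized counts in any liver. *Il22ra1*, also named after its values were seen, encodes a chain of the IL-22 receptor, which is outside the 3 pathways. It was lower with Dex, at 44.9 ± 3.96 and 10.2 ± 2.70 on water and 49.5 ± 4.62 and 8.44 ± 2.39 on zinc, with PBS and with Dex (n = 3 each). Of the 13 genes that carry or restrain the IL-1 receptor's signal, 1 rose and 1 fell in each Dex comparison (median 0.15 on water and 0.14 on zinc), where 21.6% and 20.1% of all genes passed. The kinase gene *Irak2* was called on water (log2 -1.10, SE 0.227, DESeq2 adjusted p = 1.8e-05). Of the 16 that carry or restrain the TNF receptor's signal, 2 rose and 2 fell on water (median -0.04) and 1 rose and 3 fell on zinc (median -0.08), a share close to the 21.6% and 20.1% of all genes. *Map3k5*, which encodes the stress kinase ASK1, rose by 1.43 on water (SE 0.139, DESeq2 adjusted p = 8.2e-23) and by 1.44 on zinc (SE 0.138, DESeq2 adjusted p = 7.8e-24), or by 1.65 on zinc without zinc-PBS replicate 1. *Rnf31*, a subunit of the linear ubiquitin ligase, was called lower on zinc (log2 -0.81, SE 0.169, DESeq2 adjusted p = 2.6e-05). *Tnfaip3*, which encodes the NF-κB inhibitor A20, had 726 counts in zinc-PBS replicate 1 and 36.4 to 81.5 in the other PBS mice, and its called difference on zinc (log2 -2.57, SE 0.857, DESeq2 adjusted p = 0.0172) was -0.40 (DESeq2 adjusted p = 0.481) without that mouse. The study lists *Tnfaip3* among the genes raised by zinc in liver. Here its difference between zinc-PBS and water-PBS did not pass, and without that mouse it was 0.65 on the log2 scale (SE 0.334).

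Of 17 JAK-STAT relay and brake genes, 2 rose and 3 fell with Dex on water (16 tested, median -0.09) and 2 rose and 5 fell on zinc (17 tested, median -0.12), beside 21.6% and 20.1% of all genes passing. *Cish*, a STAT-induced inhibitor related to *Socs3*, fell on water (log2 -1.84, SE 0.640, DESeq2 adjusted p = 0.0223) and on zinc (log2 -2.99, SE 0.641, DESeq2 adjusted p = 4.4e-05). *Stat5a*, which overlaps *Stat3*, was called lower on zinc (log2 -1.35, SE 0.202, DESeq2 adjusted p = 7.7e-10). Of 10 genes of cytokine processing and receptor shedding, 1 rose and 2 fell on water (median -0.06) and 1 rose and 1 fell on zinc (median -0.07), again beside 21.6% and 20.1% of all genes. *Timp3*, an inhibitor of the shedding protease ADAM17, was called on water (log2 0.80, SE 0.125, DESeq2 adjusted p = 3.0e-09). Its means were 226 ± 7.33 and 393 ± 28.3 on water and 234 ± 22.4 and 401 ± 44.4 on zinc, with PBS and with Dex (n = 3 each).

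The 27 genes known to respond to IL-6 and STAT3 in liver moved in both directions with Dex. On water 13 rose and 2 fell of 24 tested (median 0.34, against -0.01 over all genes), and on zinc 10 rose and 4 fell of 24 (median 0.12, against -0.01), where 21.6% and 20.1% of all genes passed. *Lcn2*, an iron-scavenging acute phase gene, went from 77.3 ± 23.8 in water-PBS to 1762 ± 467 in water-Dex (log2 4.51, SE 0.570, DESeq2 adjusted p = 1.0e-13). The serum amyloid A family gene *Saa4* rose by 2.28 (SE 0.207, DESeq2 adjusted p = 4.8e-26) and the transcription factor gene *Cebpd* by 2.22 (SE 0.265, DESeq2 adjusted p = 2.4e-15). *Junb*, an AP-1 subunit gene, fell like *Socs3* (log2 -2.41, SE 0.627, DESeq2 adjusted p = 0.00112). On zinc *Lcn2* rose by 3.89 (SE 0.566, DESeq2 adjusted p = 1.9e-10), or by 4.97 without zinc-PBS replicate 1. There *Junb* (log2 -3.36), the kinase gene *Pim1* (-2.34) and the NF-κB cofactor gene *Bcl3* (-2.19) fell, and the values without that mouse were -2.20, -1.61 and -1.63. Against untreated mice, zinc-Dex showed called increases that included *Cebpb* (log2 2.27, SE 0.205, DESeq2 adjusted p = 2.8e-26) and *Hp* (log2 1.99, SE 0.145, DESeq2 adjusted p = 2.2e-40), the genes of a transcription factor and of haptoglobin. In zinc-PBS against water-PBS, 2 of the 94 genes tested in the 7 lists passed by DESeq2, against 0.341% of all genes, and 0 by edgeR. These 2 were higher and belonged to the list of IL-6 and STAT3 response genes. Without zinc-PBS replicate 1 no gene of that list passed, and the lowest DESeq2 adjusted p was 0.265, in *Hp*. In the zinc-Dex mice set against the water-Dex mice, 0 of 94 passed by DESeq2, against 1.35% of all genes, and 0 by edgeR, with 6 at an unadjusted p under 0.05. The interaction of zinc and Dex passed in 0 of 111 list genes by DESeq2, against 0.0229% of all genes, with 9 at an unadjusted p under 0.05. A list gene called with Dex on water only, or on zinc only, was therefore not shown to differ between them.

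Markers of other cells were read beside these values. The neutrophil list summed to 152 normalized counts in zinc-PBS replicate 1 and to 46.3 to 84.2 in the other PBS mice, with *S100a8* at 37.9, *S100a9* at 60.5, *Csf3r* at 37.9 and *Retnlg* at 10.8 there, each the highest of the PBS mice. Of the other markers of that list, *Cxcr2* was at 4.51 there, *Ly6g* had at most 1.09 and *Mpo*, a gene mostly transcribed in neutrophil precursors, was at 0 in all 12 livers. The Kupffer list was not raised in that mouse (5819, against 4906 to 6975 in the other PBS mice). The part of these cells in its *Il1b* and *Socs3* values was not tested. Of 5 monocyte markers, *Ccr2* was called lower with Dex in both comparisons, while *Plac8*, which made up most of the summed level, rose on water (log2 0.66, SE 0.146, DESeq2 adjusted p = 8.1e-05) and did not pass on zinc (0.33, DESeq2 adjusted p = 0.0897). Of 6 endothelial markers *Lyve1* was called higher and *Kdr* lower in both. With both drinking waters pooled, the sums of sinusoidal endothelium (3383 to 3794 with PBS, 3739 to 4272 with Dex) and of monocytes (159 to 187 with PBS, 159 to 218 with Dex) overlapped. Taken by drinking water, the monocyte sums were higher with Dex on water (202 to 218, against 159 to 164) and overlapped on zinc. The endothelial sums were higher with Dex on zinc (4049 to 4199, against 3590 to 3794) and overlapped on water. The summed lymphocyte markers were lower with Dex (14.2 to 31.5) than with PBS (36.2 to 48.7). The sums of stellate cell markers lay at 3540 to 3941 with PBS and 3864 to 4619 with Dex, of cholangiocyte markers at 81.9 to 147 and 61.7 to 114, and of red blood cell markers at 716 to 1399 and 1104 to 1916. Taken by drinking water, the stellate sums were higher with Dex on water (4005 to 4042, against 3722 to 3941) and on zinc (3864 to 4619, against 3540 to 3583). The red blood cell sums were higher with Dex on zinc (1208 to 1380, against 716 to 870) and overlapped on water. Cholangiocyte sums overlapped on either.

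The genes whose log2 levels ran most like 3 of the 10 over the 12 livers are given as a description. Like *Il1rn*, among 9565 genes, were *Gosr1* (Pearson's r 0.976), *Map1lc3b* (0.972), *Acox2* (0.971), *Fosl2* (0.967) and *Ercc5* (0.965). Like *Il1r1* were *Rad54l2* (0.990), *Cebpb* (0.989), *Ppip5k2* (0.988), *Tmc7* (0.985) and *Gadd45g* (0.985). Like *Socs3* were the immediate early gene *Junb* (0.984), *Pim1* (0.981), *Icam1* (0.973), *Ier5* (0.968) and *Cxcl10* (0.966). The 12 points come from the same libraries and fall into PBS and Dex mice, and Spearman's rho for *Cebpb* was 0.748 and for *Gadd45g* 0.713. Without zinc-PBS replicate 1 the r with *Socs3* was 0.972, 0.968, 0.953, 0.944 and 0.939 in the same order.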

How the data were processed

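Stranded TruSeq libraries of total RNA from 12 livers were read single-end on an Illumina NextSeq. The authors mapped the reads to mm10 with HISAT 2.0.4, left out multimapping reads and used featureCounts to count the rest per Ensembl gene. The deposited table holds these raw counts, 1 column per mouse, with no normalization. The submitters' processing notes also name Trimmomatic, SAMtools and DESeq2. The annotation release and the strand setting are not given in the sources used here. Columns were assigned to groups from the labels. Symbols and coordinates came from GENCODE M21 (GRCm38), for 54809 of the 54838 gene identifiers. Of the list genes, 2 were matched under older symbols in RefSeq.

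DESeq2 1.42.0 in R 4.3.3 was used, as in the study, at a 5% FDR, in a single fit of 12 libraries whose terms were the 4 groups. Fold changes were not shrunken, the Wald test was used, and p-values were adjusted over all genes tested (Benjamini-Hochberg). The scripts were tested on simulated data. The labels name biological replicates. With 3 mice against 3, a two-sided exact permutation test cannot go below 0.10, so the p-values rest on the spread shared by DESeq2 across genes. Levels per kilobase used merged exons. Raw sums of *Il1b* were compared with exact binomial intervals in scipy 1.17.1. Alternatives were edgeR 4.0.16 (quasi-likelihood, TMM), DESeq2 with TMM factors, a low-count filter (10 counts or more in 3 or more libraries), the replicate number as a block, leaving out each library, a fit of the compared libraries alone, no independent filtering, no fold change threshold, no Cook's distance filter, and the longest transcript as length. The 10 genes, the lists and the rule for named genes (all 10 genes, and per list and comparison up to 4 called genes of largest change whose mean normalized count reached 50) were chosen with earlier results of these data known. The genes *Il1a*, *Tnf*, *Ltb*, *Il6*, *Il1r2* and *Il22ra1* and the marker genes are outside that rule. Likeness used log2(normalized count + 1).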

Additional observations from a re-analysis of the deposited data

How the results depend on the processing

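Of the 20 pairs of a gene and a Dex comparison within one drinking water, 18 kept their side of an adjusted p of 0.05 in each alternative fit, and the 6 called genes were called in 13 of 13 alternatives in both comparisons. The exceptions were *Il6st* on zinc, which passed when zinc-Dex replicate 2 was left out (-0.28, DESeq2 adjusted p = 0.0198), as well as *Stat3* on zinc without zinc-PBS replicate 1. The count of genes called between zinc-Dex and water-Dex went from 1 to 0 with no independent filtering (*Il1rn* DESeq2 adjusted p = 0.102), TMM factors (0.050), the replicate block (0.0563) and edgeR (0.126), and was 0 to 0 on leaving out 1 mouse, where the *Il1rn* difference stayed between 0.81 and 1.03. Without water-Dex replicate 2, DESeq2 gave *Il1rn* no adjusted p. It was called with the filter on low counts, with no Cook's distance filter and with only the libraries compared (DESeq2 adjusted p = 0.000142). Between zinc-Dex and water-PBS, *Il6st* lost its pass in 7 alternatives and *Tnfrsf1a* gained one in 5.

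Directions turned only on leaving out 1 mouse and only for differences that did not pass. For zinc-PBS against water-PBS these ran from -0.15 to 0.60 in *Il1rn*, -0.22 to 0.47 in *Il1r1*, -0.09 to 0.03 in *Il6st*, -0.08 to 0.17 in *Tnfrsf1b* and -0.05 to 0.20 in *Stat3*. For Dex on water they ran from -0.08 to 0.08 in *Il1rap* and -0.02 to 0.12 in *Stat3*, for Dex on zinc from -0.16 to 0.02 in *Il1rap*, and for zinc-Dex against water-Dex from -0.11 to 0.24 in *Socs3* (0.49, with no adjusted p, without water-Dex replicate 2) and from -2.22 to 0.23 in *Il1b*, where the values above 0 had no adjusted p. For the interaction they ran from -0.61 to 0.07 in *Il1r1*, -0.15 to 0.02 in *Il1rap*, -0.03 to 0.12 in *Tnfrsf1a* and -0.05 to 0.20 in *Tnfrsf1b*. The cause was not tested.

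Mice with the same replicate number did not deviate together (r from -0.204 to 0.191 in 18 pairs, and from -0.245 to 0.284 in 36 pairs with different numbers). No pairing by number was seen, but whether mice of one number shared a cage or a day cannot be told from this. The replicate block changed no call but that of *Il1rn*, and no pass but those of *Il1rn* and of *Il6st* in zinc-Dex against water-PBS (DESeq2 adjusted p = 0.0966). Depth limits *Il1b*, of which Dex groups hold 7 and 5 raw counts.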
